A study of Mus musculus with 30 samples.

Results

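Expression of 45 genes of protein folding and the unfolded protein response in the endoplasmic reticulum (ER) was followed across the hearts of young and old mice at opposite times of day and across HL-1 cultures with lowered NAD+. The genes were taken by name: 9 chaperones and co-chaperones of the ER lumen, 4 protein disulfide isomerases, 6 genes of the lectin cycle and N-glycosylation, 6 genes for the stress sensors with their proteases and Xbp1, 9 genes of ER-associated degradation (ERAD), 9 of the translocon and 2 of the COPII coat. All 45 were found among the 20764 genes of the heart count table and the 54532 of the HL-1 table. The genes tested numbered 44 in each data set, since Derl3, an ERAD channel gene, had too few counts in both.

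The hearts came from 18 female mice labelled C57BL6, which per the methods were of mixed C57Bl6J/N background, 3 per group. Young mice were 2 months old and old mice 12 months old, the latter either on plain water (old H2O) or given nicotinamide riboside (NR), a precursor of NAD+, at 3 g/L in the water from 2 months of age (old NR), and each age and diet was taken at ZT10 in the light phase and at ZT22 in the dark phase. HL-1, a line grown from an atrial tumour of a mouse, was left untreated or received FK866, an inhibitor of the NAD+ salvage enzyme NAMPT, FK866 plus NR, or FK866 plus NR plus Ex527, an inhibitor of the NAD+-dependent deacetylase SIRT1, with 3 cultures each. Only 1 hour of the light phase and 1 of the dark phase were sampled in hearts, and the HL-1 cultures were separately grown wells of a single line, so their p-values measure the spread between wells of that line.

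Proteins that enter the secretory pathway are folded in the ER by chaperones such as BiP, the product of Hspa5. When unfolded proteins build up, 3 sensors in the ER membrane respond: ATF6 is cut by proteases and becomes a transcription factor, IRE1 (gene Ern1) splices the Xbp1 mRNA into a form that codes for another, and PERK (gene Eif2ak3) slows translation and favours ATF4. ATF6 and XBP1 are known to raise transcription of many of the genes described here, and the response is known in heart muscle from ischaemia and overload.

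Heart libraries held 3922137 to 7562215 counts and HL-1 libraries 21337922 to 35000109. The clock genes followed the time labels: Arntl (Bmal1) stood at 8.89 to 53.5 normalized counts in the 9 hearts of ZT10 and at 335.5 to 737 in the 9 of ZT22. Its means at ZT10 and ZT22 were 11.2 and 660.5 in young hearts. They were 42.8 and 384.6 in old H2O hearts, and 20.1 and 485 in old NR hearts. For Per3 these means were 1285 and 142, 860 and 278, and 876 and 289. The 2 times thus lay closer together in both old groups for these clock genes, a difference that was not tested. Normalized counts are counts scaled to the mean library size with TMM factors. The 7 cardiomyocyte markers summed to 28855 to 44451 normalized counts in the hearts. In the HL-1 libraries, which the labels call cardiomyocytes, the same 7 markers summed to 6.84 to 116, with Actc1 and Pln at 0 in all 12 cultures, while 7 fibroblast markers summed to 66354 to 108066 with Tcf21 at 0. The HL-1 results below are therefore those of cultures in which the defining cardiomyocyte markers were at or near 0. Of the 7 fibroblast markers, Lum was at 0 too in the cultures with FK866 alone and with Ex527 added, and 5 were tested. The highest cardiomyocyte sum, 116 against 6.84 and 12.9 in the other cultures of its group, belonged to FK866 plus NR replicate 1. Ryr2 alone made 93.2 of that sum, and Tnnt2 was at 12.1 or below in the group.

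Promoters were read from RefSeq (GRCm38.p6), from 250 bases before to 50 after each start site, and 39 of the 45 genes matched. The ER stress response element (ERSE), the classical site of ATF6 and XBP1, is CCAAT, then 9 bases of any kind, then CCACG. It was present on either strand in 9 of the 39 genes (23.1%) and in 37 of all 27025 genes of the table (0.14%). ERSE-II (ATTGG, 1 base, CCACG) was in 2 of 39 (5.1%, Herpud1 and Dnajb11) and in 12 of all genes (0.04%). The core of the UPR element (TGACG followed directly by TGG) was in 1 of 39 (Sec24d) against 0.71% of all genes, the ATF4-type element (TGATG, 1 base, AAT) in 0 against 1.08%, and the E-box CACGTG, bound by clock factors, in 5 (12.8%) against 8.09%. No matches of different motifs overlapped (0 pairs). The stretches below show the ERSE or ERSE-II with 15 bases on each side, in the direction of the gene, for 5 genes that changed with time of day in young hearts (Hspa5, Creld2, Dnajc3, Pdia6 and Syvn1) and for 3 that did not pass the test there (Calr, Canx and Herpud1). Capitals mark the fixed bases of the element, which reads CGTGG then ATTGG where it lies on the other strand.
Hspa5 (chr2:34772010-34772058, plus strand): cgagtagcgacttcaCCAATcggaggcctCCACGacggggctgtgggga
Creld2 (chr15:88819505-88819553, plus strand): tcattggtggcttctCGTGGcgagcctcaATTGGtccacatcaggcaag
Dnajc3 (chr14:118937812-118937860, plus strand): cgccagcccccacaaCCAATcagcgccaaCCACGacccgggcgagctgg
Pdia6 (chr12:17266476-17266524, plus strand): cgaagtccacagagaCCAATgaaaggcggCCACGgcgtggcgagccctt
Syvn1 (chr19:6046517-6046565, plus strand): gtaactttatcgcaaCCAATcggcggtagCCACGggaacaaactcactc
Calr (chr8:84847060-84847108, minus strand): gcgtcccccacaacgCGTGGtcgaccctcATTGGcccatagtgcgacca
Canx (chr11:50325785-50325833, minus strand): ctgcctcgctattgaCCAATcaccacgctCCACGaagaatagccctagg
Herpud1 (chr8:94386362-94386402, plus strand): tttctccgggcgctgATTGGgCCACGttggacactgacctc
A match says only that these letters stand in the window. Of the 10 tested genes with either element, 7 were lower at ZT10 than at ZT22 in young hearts, with a median log2 fold change of -0.38, where 7.57% of all genes tested were lower and 14.4% changed either way. Of the 28 tested genes whose window held neither, 10 changed, with a median of -0.14. Manf, Hyou1, Atf6, Sec61a1, Derl1 and Ssr2 had no window and are in neither count. Of these, Manf, Hyou1, Atf6 and Sec61a1 were lower at ZT10 in young hearts, and Derl1 and Ssr2 did not pass. Of the 4 tested genes with an E-box, 0 changed in young hearts, where 14.4% of all genes did. Of these 4, Dnajb9 alone changed with time in old H2O and in old NR hearts, where 4.2% and 5.37% of all genes did.

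Per length, Hspa5 stood at a mean of 609 normalized counts per kb over the 18 hearts (481 to 829), Calr (calreticulin, a lectin chaperone) at 604 (484 to 743) and Herpud1, an ERAD scaffold, at 573 (428 to 723). These ranges overlapped, so the 3 genes are not ordered by level. The sensors stood lower on that scale, with Atf6 at 208, Ern1 at 38.4 and Eif2ak3 at 29.0 normalized counts per kb. In untreated HL-1 cultures the order by FPKM was Calr (987), P4hb (the disulfide isomerase PDI, 868) and Hspa5 (615), while Herpud1 stood at 23.1 and Atf6 at 17.4. The 45 genes together took 0.551% to 0.614% of all counts in 15 hearts and 0.659% to 0.692% in the 3 young hearts of ZT22, so that the latter did not overlap with any other heart. In HL-1 cultures the share was 2.04% to 2.25%.

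**Figure D1:**
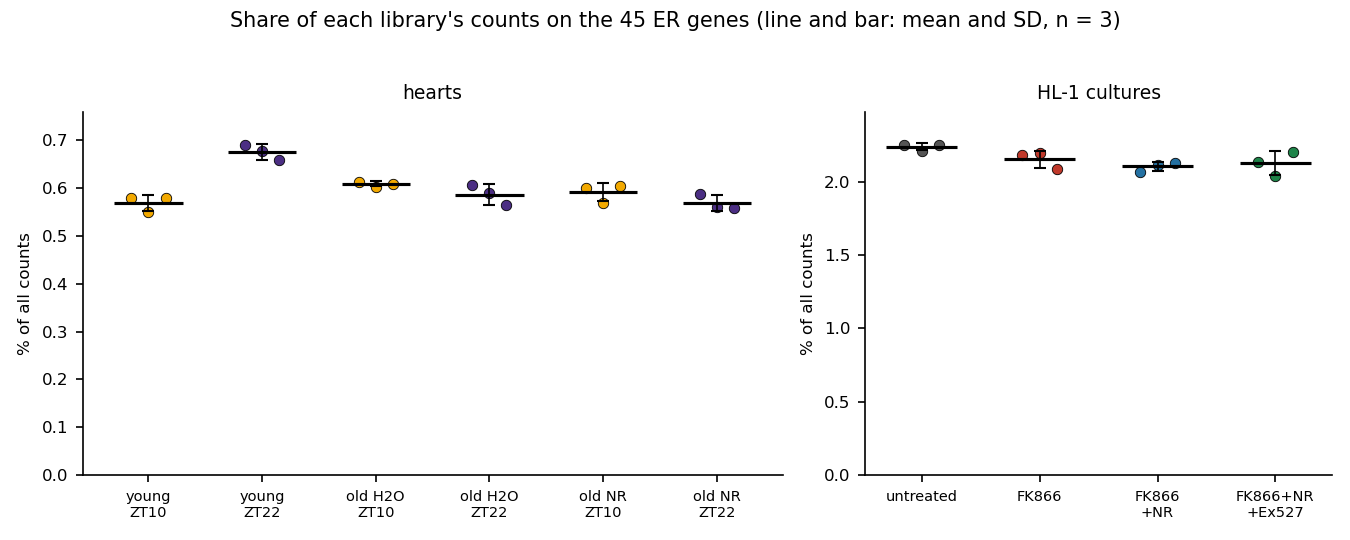
Share of each library's counts that fell on the 45 ER genes, in percent (vertical axis), for the 6 groups of hearts on the left and the 4 HL-1 groups on the right, with 1 point per library and the mean and SD of 3. The 3 young ZT22 hearts sit at 0.659% to 0.692%, above the other 15 hearts, which sit at 0.551% to 0.614%.

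The first comparison asked which ER genes differed between light and dark phase in young hearts. In these, 20 of the 44 genes were lower at ZT10 than at ZT22 and 1, Edem2, was higher (edgeR quasi-likelihood F-test, two-sided, Benjamini-Hochberg adjusted p under 0.05 over all 15443 genes tested). Of all genes tested, 14.4% changed in either direction and 7.57% were lower at ZT10. The median log2 fold change (ZT10 over ZT22) was -0.19 over the 44 genes and 0.01 over all genes, and 34 of the 44 were negative. For 15 of the 44, all 3 young ZT22 hearts lay above each of the other 15 hearts, which was so for 3.04% of all genes. By role, 8 of 9 luminal chaperones and co-chaperones, 3 of 4 disulfide isomerases and 1 of 9 translocon genes fell, and the difference between roles was not tested.

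Sdf2l1, a co-factor of the BiP system (ENSMUSG00000022769, chr16:17130138-17132383, mm10), showed the largest difference of the 44. It stood at 54.5, 39.4 and 35.2 normalized counts in the young hearts of ZT10 and at 203, 201 and 166 in those of ZT22. In old H2O hearts it stood at 67.71, 95.95 and 70.9 at ZT10 and at 70.7, 82.8 and 62.1 at ZT22. In old NR hearts the values were 76.7, 92.2 and 81.2 at ZT10 and 45.7, 42.7 and 61.1 at ZT22. Thus the young groups were far apart with the dark phase high, the old H2O groups overlapped, and the old NR groups were apart in the opposite direction. The log2 fold change in young hearts was -2.13 ± 0.18 (SE, n = 3 per group; edgeR adjusted p = 3.06e-08), a 4.38-fold difference.

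Manf (ENSMUSG00000032575), a secreted ER factor that binds BiP, had 235, 186 and 232 normalized counts in young hearts at ZT10 and 556, 521 and 457 at ZT22. Old H2O hearts had 292, 274 and 269.7 at ZT10 and 275, 254 and 226 at ZT22, and old NR hearts 308, 287 and 316 at ZT10 and 209.5, 248 and 233 at ZT22. The young groups differed 2.35-fold, whereas the old H2O groups overlapped and the old NR groups did not, with ZT10 the higher. Hyou1 (ENSMUSG00000032115), the ER member of the HSP110 family that exchanges nucleotide on BiP, had 570.3, 479.8 and 587 normalized counts in young hearts at ZT10 and 1256, 1260.4 and 1099 at ZT22. In old H2O hearts it lay at 728, 711 and 690.4 at ZT10 and at 724, 751 and 675.5 at ZT22. In old NR hearts it lay at 738, 740.2 and 706 at ZT10 and at 642, 582 and 619 at ZT22. Its young groups differed 2.21-fold (log2 fold change -1.15 ± 0.07, edgeR adjusted p = 4.73e-10), while the 6 old H2O hearts formed 1 range.

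Creld2 (ENSMUSG00000023272), an ER protein with disulfide isomerase activity, had 145, 113 and 147 normalized counts in young hearts at ZT10 against 295, 281 and 255 at ZT22. It had 181, 179 and 149.9 in old H2O hearts at ZT10 and 146, 171 and 161 at ZT22. In old NR hearts it had 179.7, 190.1 and 182 at ZT10 and 136, 131 and 161 at ZT22. The young groups were apart 2.06-fold. The old H2O groups overlapped, and the old NR groups did not, with ZT10 the higher and the ZT22 hearts reaching down into the range of the young ZT10 hearts.

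Pdia4 (ENSMUSG00000025823), a disulfide isomerase, had 358, 326 and 371 normalized counts in young hearts at ZT10 and 657, 652 and 595 at ZT22. It had 407, 429.9 and 429 in old H2O hearts at ZT10 and 400.2, 420.3 and 356 at ZT22. In old NR hearts it had 389.6, 368 and 389 at ZT10 and 359, 339 and 391 at ZT22. Only the young groups stood apart (1.81-fold). Of the other disulfide isomerases, Pdia3 and Pdia6 fell at ZT10 with log2 fold changes of -0.40 and -0.35, and P4hb, the founding member, gave 0.03 ± 0.10 (edgeR adjusted p = 0.905).

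Syvn1 (HRD1, ENSMUSG00000024807), the ubiquitin ligase of ERAD, had 324, 333 and 294 normalized counts in young hearts at ZT10 and 534, 586 and 505 at ZT22. In old H2O hearts it had 341, 355 and 334 at ZT10 and 339, 328 and 331 at ZT22, and in old NR hearts 333, 373 and 345 at ZT10 and 329, 305 and 342 at ZT22. The young ZT22 hearts were the high ones, with the other 15 between 294 and 373. Dnajc3 (p58IPK, ENSMUSG00000022136), a DnaJ partner of BiP, had 764, 723 and 795 normalized counts in young hearts at ZT10 and 1171, 1322 and 1027 at ZT22. Old H2O hearts had 929, 925 and 873 at ZT10 and 915, 893 and 797 at ZT22, and old NR hearts had 906, 802 and 888 at ZT10 and 851, 846 and 858 at ZT22. Again the young ZT22 hearts were above all others, and the old groups of each diet overlapped.

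Hspa5 (BiP, ENSMUSG00000026864, chr2:34771970-34777547, mm10), whose promoter stretch is printed above, had 2412, 2035 and 2388 normalized counts in young hearts at ZT10 and 3504, 2981 and 2984 at ZT22. Old H2O hearts had 2800.5, 2532 and 2651 at ZT10 and 3040.2, 2415 and 2104 at ZT22. Old NR hearts had 2689.8, 2179.8 and 2747 at ZT10 and 2691, 2068 and 2154 at ZT22. The young groups did not overlap, but 1 old H2O heart of ZT22 lay within the range of the young hearts of that time. The log2 fold change in young hearts was -0.47 ± 0.13 (SE, n = 3 per group; edgeR adjusted p = 0.0139). This call was lost without young ZT10 replicate 2 (-0.39, edgeR adjusted p = 0.0832) and without young ZT22 replicate 1 (-0.39, edgeR adjusted p = 0.0658). Hsp90b1 (GRP94), the ER member of the HSP90 family, and Dnajb11 fell at ZT10 with log2 fold changes of -0.41 and -0.34.

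Of the sensor genes, Atf6 (ENSMUSG00000026663, chr1:170704674-170867771, mm10) had 1545, 1629 and 1790.1 normalized counts in young hearts at ZT10 and 2067, 2228 and 2226 at ZT22. Old H2O hearts had 1893, 1959 and 1854 at ZT10 and 1834, 1906 and 1800.1 at ZT22. Old NR hearts had 1737, 1622 and 1763 at ZT10 and 2516, 2093 and 2062 at ZT22. Atf6 was therefore lower at ZT10 in young hearts (log2 fold change -0.40 ± 0.08) and in old NR hearts (-0.38 ± 0.08, edgeR adjusted p = 0.00542), with 0.04 ± 0.08 in old H2O hearts, whose groups overlapped. Xbp1 (ENSMUSG00000020484) had 560.3, 496 and 534 normalized counts in young hearts at ZT10 and 840.3, 898 and 821 at ZT22. It had 630.4, 642 and 629 in old H2O hearts at ZT10 and 626, 598 and 515.5 at ZT22, and 631, 526 and 615 in old NR hearts at ZT10 and 508, 476 and 510.3 at ZT22. The young groups differed 1.61-fold with ZT22 the higher, whereas in both old groups all ZT10 hearts lay above all ZT22 hearts without passing the test (log2 fold changes 0.14 ± 0.08 and 0.24 ± 0.08, edgeR adjusted p = 0.352 and 0.064). These counts are per gene and do not tell the spliced from the unspliced Xbp1 mRNA.

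Ern1 (ENSMUSG00000020715), coding for IRE1, had 306, 315 and 377 normalized counts in young hearts at ZT10 and 295, 325 and 274 at ZT22. Old H2O hearts had 271, 274 and 271 at ZT10 and 251, 315 and 349.9 at ZT22, and old NR hearts had 309.9, 309 and 290.4 at ZT10 and 393, 394 and 335 at ZT22. Eif2ak3 (ENSMUSG00000031668), coding for PERK, had 155, 169 and 177 in young hearts at ZT10 and 164, 189 and 182 at ZT22. It had 154, 187 and 199 in old H2O hearts at ZT10, 157, 199 and 194 at ZT22, and 151, 172 and 159.5 against 183, 159 and 198 in old NR hearts. Neither sensor gene passed the test for time in any group of mice. Only for Ern1 in old NR hearts did the groups not overlap, with ZT10 lower (log2 fold change -0.30 ± 0.10, edgeR adjusted p = 0.0757). The protease genes Mbtps1 and Mbtps2, whose products cut ATF6, gave 0.07 and -0.20 in young hearts and did not pass.

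**Figure D2:**
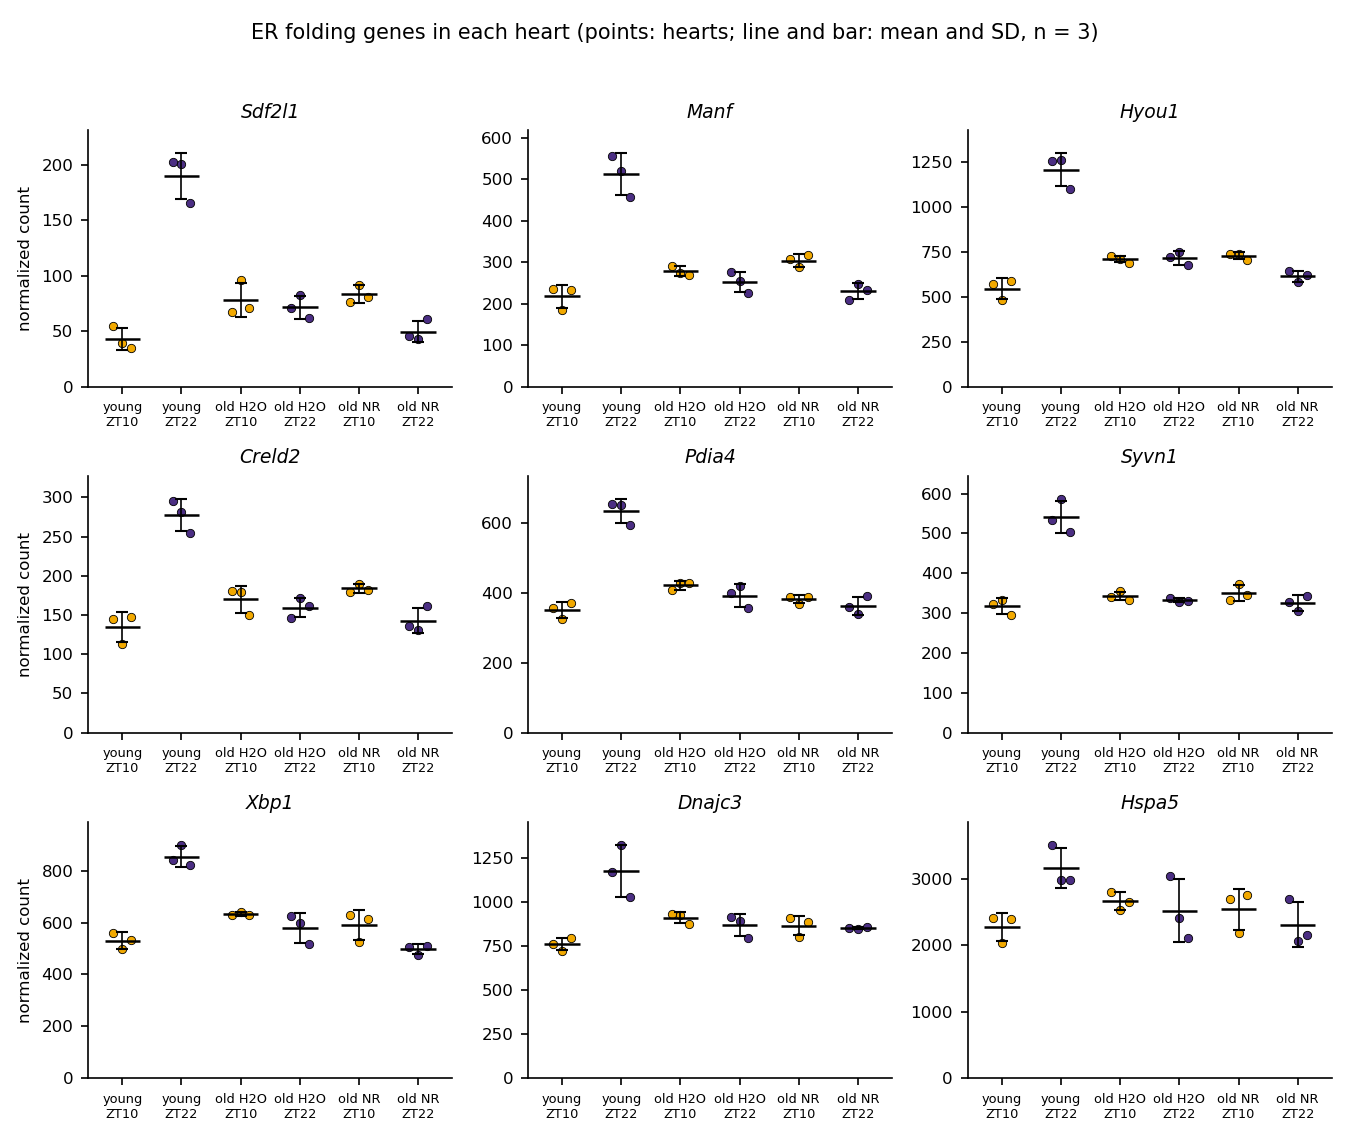
Normalized counts (vertical axes, from 0) of 9 ER genes in each of 18 hearts, grouped by age, diet and time, with ZT10 in orange and ZT22 in purple and the mean and SD of 3. In the panels other than Hspa5 the 3 young ZT22 hearts lie above all others, as for Sdf2l1 (166 to 203), and both times overlap in old H2O hearts for Sdf2l1, Hyou1, Creld2 and Pdia4.

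Among the remaining young changes, the lectin cycle and N-glycosylation genes had 2 of 6 lower at ZT10: Stt3a and Rpn1, subunits of the oligosaccharyltransferase, with log2 fold changes of -0.26 and -0.21. The lectin chaperones Calr and Canx, both with an ERSE, gave -0.14 ± 0.12 and -0.02 ± 0.12. Of the 8 ERAD genes tested, Syvn1, Edem1 (-0.34) and Derl2 (-0.26) fell. Edem2 (ENSMUSG00000038312), a mannosidase-like factor of glycoprotein disposal, stood at 176, 155 and 179.6 normalized counts at ZT10 and at 126, 144 and 139 at ZT22, with the ZT10 hearts above. In the translocon, the pore subunit Sec61a1 fell (-0.30) and the other 8 genes ranged from -0.32 (Sec61b) to 0.07 (Sec61g) without passing. Of the COPII genes, Sec23b fell (-0.33) and Sec24d gave 0.08. The calls of 14 of the 21 genes held in every alternative fit, and those of Hspa5, Hsp90b1, Edem1, Edem2, Derl2, Rpn1 and Sec23b were lost without at least 1 of the young hearts.

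Markers of other cell types were measured beside this. The 6 endothelial markers summed to 9547 to 10351 normalized counts in young ZT22 hearts and to 7518 to 9455 in the other hearts, so the groups did not overlap, and 1 of the 6 was lower at ZT10 in young hearts. The 6 macrophage markers summed to 1482 to 1660.4 in young ZT22 hearts and to 1535 to 2332 in the others, and 2 of the 6 were higher at ZT10 in young hearts. Plasma and B cells, which are rich in ER, gave marker sums of 202 to 209 in young ZT22 hearts, within the 174 to 345 of the other hearts. The 7 atrial markers summed to 1666 to 5592 in young ZT10 hearts and to 1448 to 2486 in young ZT22 hearts. Of these 7, 1 was higher at ZT10, as were 1 of 7 cardiomyocyte and 1 of 7 fibroblast markers. No marker of these lists was at 0 in any of the groups of hearts. Their part in the result was not tested, and in whole hearts fewer cells of a type and less RNA per cell cannot be told apart.

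In old H2O hearts, 2 of the 44 genes passed the test for time, against 4.2% of all genes, and both were higher at ZT10. Herpud1 (ENSMUSG00000031770), which carries the ERSE-II printed above, had 1609.8, 1363 and 1476 normalized counts at ZT10 and 1137, 1048 and 999 at ZT22 in old H2O hearts. It had 1543, 1561 and 1686 against 1366, 1352 and 1393 in young hearts, and 1363, 1203 and 1383 against 1415, 1044 and 1106 in old NR hearts. The old H2O and the young groups did not overlap, with ZT10 higher in both, and the old NR groups did (log2 fold changes 0.49 ± 0.09, 0.22 ± 0.09 and 0.16 ± 0.09). Only the first of these passed (edgeR adjusted p = 0.00366; 0.126 in young and 0.414 in old NR hearts).

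Dnajb9 (ERdj4, ENSMUSG00000014905), a DnaJ protein that also restrains IRE1, had 536, 545 and 557 normalized counts at ZT10 and 442, 430.4 and 406 at ZT22 in old H2O hearts. In old NR hearts it had 556, 463 and 545 against 422, 423 and 450, and in young hearts 516, 446 and 510 against 580.5, 549.6 and 535. It was higher at ZT10 in both old groups (log2 fold changes 0.36 ± 0.07 and 0.27 ± 0.07), while in young hearts ZT10 was the lower side without passing (-0.18 ± 0.07, edgeR adjusted p = 0.108). The old H2O call held in every fit, and the old NR call was lost in 4 of 6 fits without single hearts. Hspa5 gave 0.08 in old H2O hearts, with a 95% interval of -0.16 to 0.33. Atrial markers summed to 3209 to 4222 normalized counts in old H2O hearts at ZT10 and to 1364 to 4168 at ZT22, and 1 of 7 was higher at ZT10. Lower at ZT10 were 1 of 6 macrophage, 1 of 7 fibroblast and 1 of 7 plasma and B cell markers. The part of these markers in the old H2O values was not tested.

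In old NR hearts, 5 of the 44 genes passed, against 5.37% of all genes. Atrial markers summed to 1355 to 1432 normalized counts in these hearts at ZT10 and to 1818 to 2285 at ZT22, without overlap. Of these markers 0 of 7 passed, and their part in the result was not tested. Sdf2l1 (log2 fold change 0.74 ± 0.18), Manf (0.39 ± 0.09), Dnajb9 (0.27) and Hyou1 (0.25 ± 0.07) were higher at ZT10, and Atf6 was lower. The call of Atf6 was kept in every alternative fit. Without single hearts, Hyou1 lost its call in 5 of 6 fits, and Manf and Dnajb9 each in 4 of 6. DESeq2 called neither Dnajb9 (DESeq2 adjusted p = 0.0558) nor Hyou1 (DESeq2 adjusted p = 0.0701). Without old NR ZT10 replicate 1, old NR ZT10 replicate 3 or old NR ZT22 replicate 2, 2 genes passed instead of 5. Sdf2l1 lost its call without old NR ZT10 replicate 2 (0.65, edgeR adjusted p = 0.0832) and without old NR ZT22 replicate 2 (0.61, edgeR adjusted p = 0.114).

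**Figure D3:**
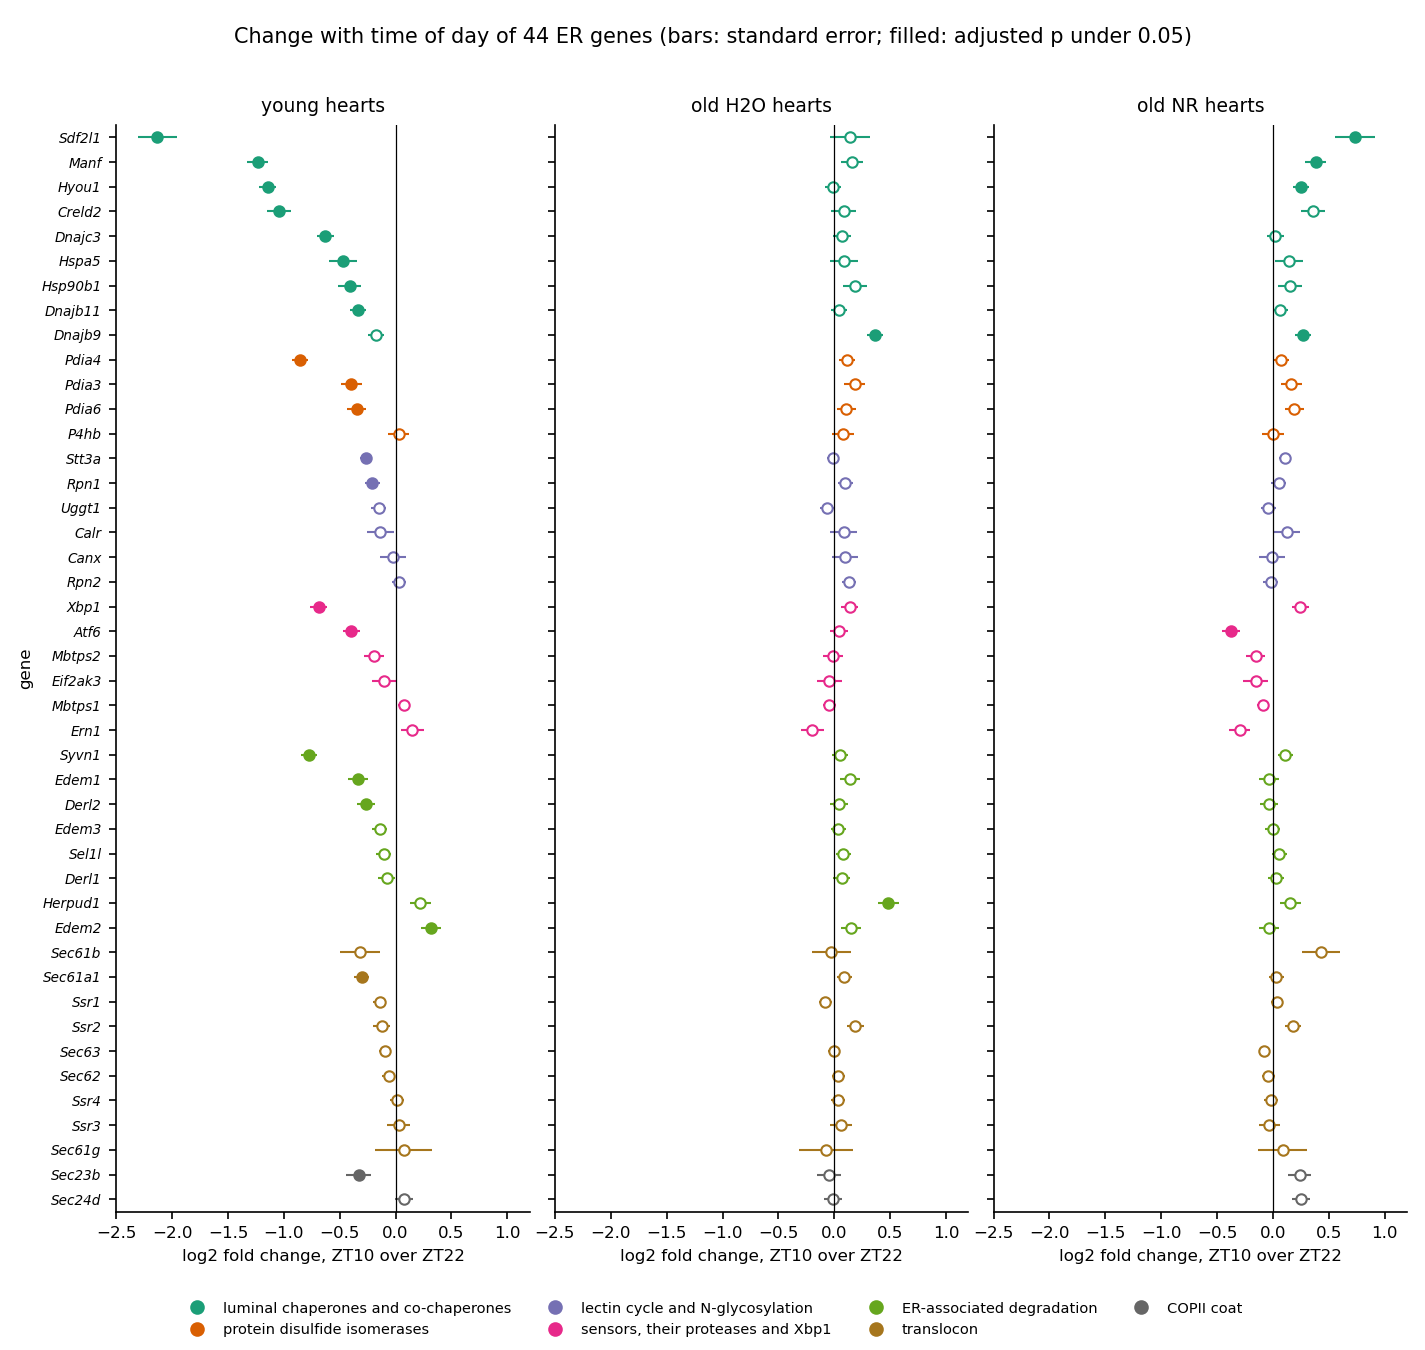
Log2 fold change of ZT10 over ZT22 (horizontal axes) with its standard error for the 44 tested ER genes, ordered by role and colour, in young, old H2O and old NR hearts. Filled points passed at adjusted p under 0.05: 21 in young, 2 in old H2O and 5 in old NR hearts, with Sdf2l1 at -2.13, 0.14 and 0.74.

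Whether the time difference itself differed between ages was tested with the age by time interaction, the log2 fold change of old H2O hearts minus that of young hearts. Here 17 of the 44 genes passed and all 17 were positive, which means that ZT10 stood higher relative to ZT22 in old than in young hearts. Of all genes tested, 6.89% passed in either direction and 3.13% with a positive sign. The median interaction over the 44 genes was 0.28, with 0.00 over all genes. The largest were Sdf2l1 (2.27 ± 0.25, edgeR adjusted p = 1.42e-05), Manf (1.40 ± 0.14), Hyou1 (1.14 ± 0.10), Creld2 (1.13 ± 0.16), Pdia4 (0.97 ± 0.10), Xbp1 (0.83 ± 0.11), Syvn1 (0.82 ± 0.10) and Dnajc3 (0.70 ± 0.11).

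By role, 8 of 9 luminal chaperones and co-chaperones passed the age by time test, as did 3 of 4 disulfide isomerases, 2 of 6 sensor genes (Xbp1 and Atf6), 2 of 8 ERAD genes, 1 of 6 lectin cycle and glycosylation genes, 1 of 9 translocon genes and 0 of 2 COPII genes. Hspa5 gave 0.55 ± 0.18 and did not pass (edgeR adjusted p = 0.0626). Atf6 gave 0.44 ± 0.11 (edgeR adjusted p = 0.0219), a call lost without any 1 of 5 hearts. The calls of 10 of the 17 genes held in every alternative, and those of Hsp90b1, Stt3a, Edem1, Sec61a1, Dnajb11, Atf6 and Pdia6 were lost without at least 1 heart. Of 12 fits without single hearts, Stt3a lost its call in 11, Edem1 and Pdia6 each in 5, and Dnajb11 in 4. Hsp90b1 and Sec61a1 each lost theirs in 1. DESeq2 did not call Stt3a (DESeq2 adjusted p = 0.149). Of the marker lists, 3 of 6 macrophage markers passed the age by time test with a negative sign (list median -0.29), as did 1 of 7 cardiomyocyte, 1 of 7 fibroblast and 1 of 7 plasma and B cell markers, and 0 of 6 endothelial ones. Their part in the result was not tested.

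Old NR hearts were compared with young hearts in the same way. Again 17 of the 44 genes passed, all with a positive sign, against 5.98% of all genes in either direction and 3.21% with a positive sign. Sdf2l1 gave 2.87 ± 0.25, Manf 1.62 ± 0.13, Creld2 1.41 ± 0.15, Hyou1 1.40 ± 0.10, Xbp1 0.93 ± 0.11, Pdia4 0.93 ± 0.10, Syvn1 0.88 ± 0.10 and Dnajc3 0.65 ± 0.11. All 9 luminal chaperones and co-chaperones passed, Hspa5 with 0.61 ± 0.18 (edgeR adjusted p = 0.0437), a call that did not survive the removal of single hearts in 9 of 12 cases. Without single hearts, Hsp90b1 and Sec61a1 each lost their call in 8 of 12 fits, Sec23b in 6 and Dnajb11 in 1. DESeq2 did not call Sec61a1 (DESeq2 adjusted p = 0.107). The calls of 12 of the 17 genes held in every alternative fit. Atf6 gave 0.02 ± 0.11 (edgeR adjusted p = 0.964). Of the markers, 1 of 6 macrophage genes passed, with a negative sign. Both interactions use the same 6 young hearts. The 3 of ZT22 among these also serve the test for time in young hearts and the age comparison at ZT22 given below.

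The difference in the time change between old NR and old H2O hearts passed for 0 of the 44 genes in edgeR, against 0.343% of all genes, with 5 genes at an unadjusted p under 0.05. DESeq2 called 1, Atf6 (adjusted p = 0.043). For Atf6 the interaction was -0.42 with a 95% interval of -0.64 to -0.20 (edgeR adjusted p = 0.138). For Sdf2l1 it was 0.59 with an interval of 0.10 to 1.09, and for Hspa5 0.06 with an interval of -0.29 to 0.41.

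At fixed time, age was compared next. At ZT22, 20 of the 44 genes were lower in old H2O than in young hearts and 0 were higher, against 14.1% of all genes in either direction and 6.17% lower. The median log2 fold change (old H2O over young) was -0.19 over the 44 genes and -0.01 over all genes. Sdf2l1 was 2.65-fold lower (-1.41 ± 0.16), Manf 2.05-fold (-1.04 ± 0.09), Creld2 1.72-fold, Hyou1 1.68-fold, Syvn1 1.63-fold, Pdia4 1.62-fold and Xbp1 1.48-fold lower, and Dnajc3 gave -0.44 ± 0.08. Hspa5 gave -0.33 ± 0.13 (edgeR adjusted p = 0.0846). Ssr2, a subunit of the translocon-associated complex, passed here (-0.38 ± 0.07) and not for time in young hearts (-0.12 ± 0.07). Without old H2O ZT22 replicate 3, 12 genes passed instead of 20. When only the 2 groups were fitted, Derl2, Hsp90b1, Stt3a, Edem1, Sec61a1 and Rpn1 lost their calls. The count over all genes then fell from 2183 of 15443 to 1168 of 15456. At this time 3 of the 6 endothelial markers were lower in old H2O hearts (sums of 8173 to 9455 normalized counts against 9547 to 10351 in young hearts) and 5 of the 6 macrophage markers were higher (2112 to 2332 against 1482 to 1660.4). Their part in the result was not tested.

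At ZT10, 4 of the 44 genes were higher in old H2O than in young hearts, against 5.87% of all genes in either direction: Sdf2l1 (0.87 ± 0.20), Hyou1 (0.38 ± 0.08), Manf (0.36 ± 0.10) and Pdia4 (0.27 ± 0.08). The count rested on single hearts. It fell to 1 without old H2O ZT10 replicate 2, young ZT10 replicate 2 or young ZT10 replicate 3, and to 2 without old H2O ZT10 replicate 1 or 3, and Hyou1 alone kept its call in every fit. It rose to 11 when only the 2 groups were fitted, where the count over all genes rose too, from 906 of 15443 to 1479 of 15108. Beside these, red blood cell markers summed to 854 to 998.5 normalized counts in old H2O and 525 to 795 in young hearts of ZT10, and fibroblast markers to 7113 to 8141 and 8173 to 8921, without overlap in either list. Of these lists 1 of 5 red blood cell markers was higher and 1 of 7 fibroblast markers lower, and 1 of 6 macrophage markers was higher. Their part in the result was not tested.

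Between old NR and old H2O hearts, 0 of the 44 genes passed in edgeR at ZT10, against 0.285% of all genes, with 3 at an unadjusted p under 0.05. At ZT22, 0 passed against 0.35% of all genes, with 9 at an unadjusted p under 0.05. DESeq2 called 0 at either time. At ZT22 the log2 fold change of old NR over old H2O hearts was -0.51 for Sdf2l1 (95% interval -0.87 to -0.15), -0.22 for Hyou1 (-0.37 to -0.08), -0.21 for Xbp1 (-0.36 to -0.06) and 0.27 for Atf6 (0.11 to 0.42). At ZT10, 3 of the 7 atrial markers were lower in old NR hearts, with sums of 1355 to 1432 normalized counts against 3209 to 4222 in old H2O hearts. At ZT22, 3 of the 6 macrophage markers were lower in old NR hearts, with sums of 1535 to 1644 against 2112 to 2332. The fibroblast markers did not overlap at either time, with sums of 5607 to 6475 against 7113 to 8141 at ZT10 and of 6007 to 6964 against 7176 to 8648 at ZT22, and 1 of 7 was lower at each. The part of these markers in the values above was not tested.

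Other genes of the pathway and of neighbouring pathways were taken as lists. In young hearts, 10 of 20 cytosolic and nuclear heat shock genes were lower at ZT10 and 0 higher, with a list median of -0.36, where 7.57% of all genes were lower and 14.4% changed either way. They included Hsph1 (-1.004 ± 0.103), Hsp90aa1 (-0.82 ± 0.09), Chordc1 (-0.67 ± 0.08) and Hsf1 (-0.39 ± 0.07), the last coding for the main heat shock factor. The age by time test called 10 of these 20, all with a positive sign, against 3.13% of all genes, and the list median was 0.39. Among other ER folding genes, 4 of 26 were lower and 2 higher at ZT10, with P4ha1, a collagen prolyl hydroxylase subunit, at -0.82 ± 0.08 and Fkbp10, a collagen chaperone, at 0.78 ± 0.09. Of other ERAD genes 2 of 18 fell (Rnf139 and Ubxn4) and 0 rose, and of other secretory pathway genes 3 of 38 fell and 2 rose, shares near those of all genes.

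In the PERK and ATF4 branch, 4 of 15 genes were lower and 2 higher at ZT10 in young hearts, with a median of -0.03. Of all genes tested, 7.57% were lower and 14.4% changed either way. Atf3, a stress-induced transcription factor, gave -2.05 ± 0.45 and Ppp1r15a (GADD34), which restores translation, -0.70 ± 0.17. Chac1, which degrades glutathione, gave 1.71 ± 0.27 and Cebpb 1.03 ± 0.14 in the opposite direction. Of 5 other ER stress transcription factors tested, Creb3l1 fell (-1.42 ± 0.20). Of 14 mitochondrial chaperones and proteases, 1 fell and 0 rose, with a median of 0.04, a share near that of all genes.

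**Figure D4:**
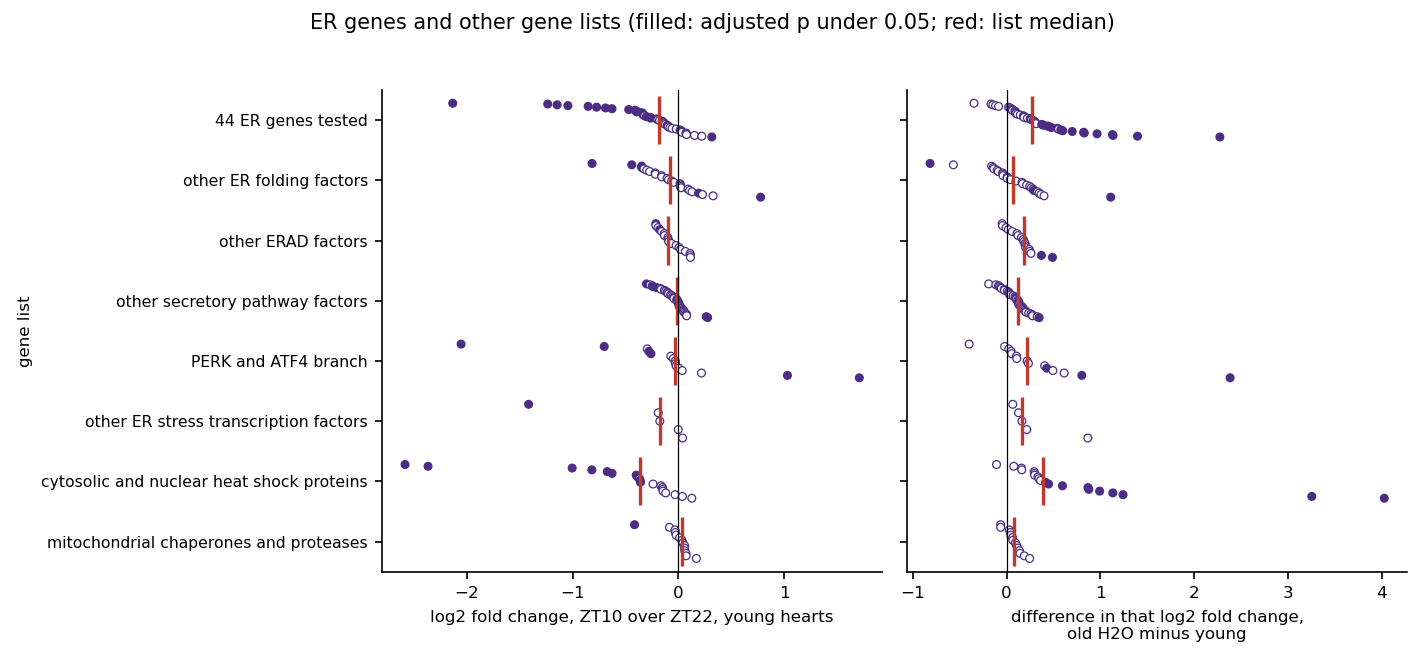
Log2 fold change of ZT10 over ZT22 in young hearts (left) and the age by time interaction (right) for the 44 tested ER genes and 7 other lists, with 1 point per gene, filled where adjusted p is under 0.05, and the list median in red. The median for time lies at -0.19 for the ER genes, -0.36 for cytosolic and nuclear heat shock genes and 0.04 for mitochondrial ones.

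In HL-1 cultures, a gene was called at an edgeR adjusted p under 0.01 over 14760 genes and a fold change over 1.5. FK866 against untreated cultures changed 1 of the 44 genes by this rule, against 4.59% of all genes. Sec61g, the small subunit of the translocon pore (ENSMUSG00000078974), stood at 2287, 2119.5 and 2421 normalized counts untreated and at 1461, 1714.5 and 1267 with FK866. The groups did not overlap (log2 fold change -0.62 ± 0.10, edgeR adjusted p = 0.000595), but the change fell under 1.5-fold without untreated replicate 3 (-0.56) and without FK866 replicate 3 (-0.51). With FK866 plus NR the values were 1976, 1893 and 1673 and with Ex527 added 1852, 1510.2 and 1677, between the first 2 groups or within that of FK866.

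By adjusted p alone, 11 of the 44 genes differed with FK866, against 13.9% of all genes. The 9 lower ones were 5 translocon genes (Sec61g, Sec61b at -0.48, Ssr2 at -0.32, Ssr3 at -0.28 and Ssr1 at -0.25), the disulfide isomerases Pdia6 (-0.44), P4hb (-0.32) and Pdia4 (-0.24), and Mbtps1 (-0.39), and the 2 higher ones were ERAD genes, Herpud1 (0.56 ± 0.06) and Syvn1 (0.34 ± 0.07). The fibroblast markers, of which 3 of 5 tested fell with FK866, summed to 66354 to 70006 normalized counts there against 98620 to 108066 untreated. The 1 cardiomyocyte marker tested, Tnnt2, was higher with FK866 (log2 fold change 2.87), at 20.9 to 44.2 normalized counts against 4.11 to 4.51 untreated. The 1 red blood cell marker tested was lower (-1.13). The part of these markers in these values was not tested.

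Herpud1 was the gene that passed with NR. It stood at 1391, 1403 and 1458 normalized counts untreated, at 2193, 2129.7 and 1925.5 with FK866, at 1299.7, 1362 and 1303 with FK866 plus NR, and at 1571, 1590.1 and 1443.5 with Ex527 added. The cultures with FK866 alone were above all others. Those with FK866 plus NR were below the untreated ones, and those with Ex527 added overlapped with the untreated ones. FK866 plus NR against FK866 gave -0.66 ± 0.07 (edgeR adjusted p = 6.13e-06), and -0.64 without FK866 plus NR replicate 1, the culture with the highest cardiomyocyte marker sum. This was 1 of the 44 genes, against 4.81% of all genes. The fibroblast markers summed to 98333 to 99621 normalized counts with NR, and 3 of the 5 tested rose against FK866. Tnnt2 was lower than with FK866 (log2 fold change -2.12), at 4.56 to 12.1 normalized counts. The part of these markers in these values was not tested. By adjusted p alone 10 of the 44 differed, against 15.3% of all genes: Herpud1, Manf (-0.48 ± 0.09), Creld2 (-0.40 ± 0.08) and Hspa5 (-0.36 ± 0.06) lower with NR, and Ern1 (0.46 ± 0.11), Mbtps1 (0.43), Uggt1 (0.37), Sec63 (0.30), Ssr3 (0.25) and Ssr1 (0.22) higher.

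Hspa5 stood at 71457, 65794 and 68319 normalized counts untreated, 82965, 81447 and 75011 with FK866, 60601, 63988 and 62099 with FK866 plus NR, and 66962, 61551 and 72482 with Ex527 added. The FK866 cultures were again the highest, above the untreated ones by 0.22 ± 0.06 on the log2 scale (edgeR adjusted p = 0.0182). Atf6 stood at 4537.5, 4237 and 3946 untreated, 3972.5, 3622.5 and 4487.5 with FK866, 4669.8, 4628 and 4798 with FK866 plus NR, and 4643, 4787 and 4982 with Ex527 added. Atf6 overlapped between untreated and FK866 cultures, and both groups with NR lay above the untreated one.

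Xbp1 stood at 4201, 4482 and 4739 untreated, 3952, 4025 and 3420.3 with FK866, 3857, 3857 and 4083 with FK866 plus NR, and 4032.5, 4136 and 4267 with Ex527 added. Ern1 stood at 4750.1, 4019 and 3515 untreated, 3927, 3249 and 4343.5 with FK866, 5505, 5219 and 5127 with FK866 plus NR, and 5140.3, 5488 and 4617.5 with Ex527 added. Eif2ak3 stood at 882, 777 and 791 untreated, 812, 716 and 722 with FK866, 870.1, 888 and 894 with FK866 plus NR, and 901, 864 and 904 with Ex527 added. Each of these sensor genes overlapped between untreated and FK866 cultures, and Xbp1 did not, with FK866 lower (-0.24 ± 0.07, edgeR adjusted p = 0.0206).

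**Figure D5:**
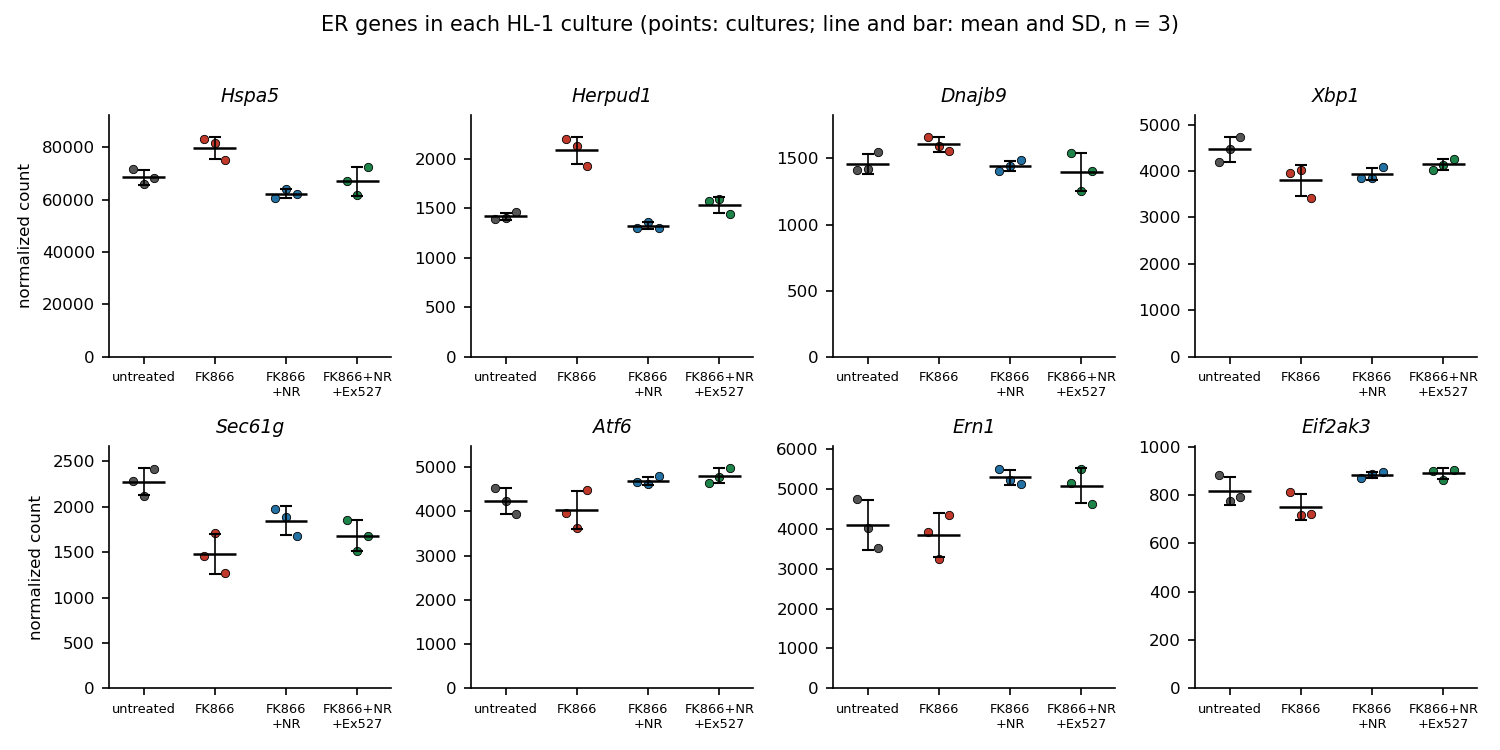
Normalized counts (vertical axes, from 0) of 8 ER genes in each HL-1 culture of the 4 groups, with the mean and SD of 3. Herpud1 and Hspa5 are highest with FK866 (1926 to 2193 and 75011 to 82965), and Sec61g is lowest there (1267 to 1715).

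FK866 plus NR against untreated cultures gave 0 calls among the 44 genes in edgeR and in DESeq2, against 0.901% of all genes, with 25 genes at an unadjusted p under 0.05. The 133 genes behind that share were not stable: 0 were called without any 1 of the FK866 plus NR cultures or without untreated replicate 2 or 3, 423 without untreated replicate 1 and 8 with the replicate block. By adjusted p alone 1 differed, Sec61b (-0.47 ± 0.09), against 2.66% of all genes. Ex527 added to FK866 plus NR gave 0 calls in edgeR and in DESeq2, against 0.596% of all genes, with 7 genes at an unadjusted p under 0.05. By adjusted p alone 0 differed, against 2.21% of all genes. The values nearest to the threshold were those of Manf (0.30, 95% interval 0.13 to 0.48), Herpud1 (0.22) and Hyou1 (0.19, interval 0.07 to 0.30).

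Of the 15 genes of the PERK and ATF4 list, 3 were called with FK866, 6 with NR added and 3 with Ex527 added, against 4.59%, 4.81% and 0.596% of all genes. With FK866, Atf3 (1.70 ± 0.25) and Trib3 (0.71 ± 0.09) rose and Ddit4 (-1.22 ± 0.10) fell, out of 15 genes. With NR added, 5 of 15 fell, among them Asns (-0.67 ± 0.05), Trib3 (-1.04 ± 0.09) and Atf3 (-1.83 ± 0.25), and Ddit4 rose (1.11 ± 0.10), with a list median of -0.48. With Ex527 added, 3 of 15 rose: Chac1 (0.95 ± 0.09), Trib3 (0.86 ± 0.09) and Sesn2 (0.64 ± 0.08). The fibroblast markers summed to 86269 to 89395 normalized counts with Ex527 against 98333 to 99621 without, and 1 of 5 tested was lower. The 1 red blood cell marker tested was lower too (-1.88). The part of these markers in these values was not tested. These comparisons share the FK866 or the FK866 plus NR cultures.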

How the data were processed

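RNA was measured in 18 hearts and 12 HL-1 cultures. For hearts, the authors trimmed stranded single-end reads (Trimmomatic 0.39), aligned them to mm10 (STAR 2.7.10a), removed duplicates (Picard 3.0.0) and multi-mapping, ribosomal and mitochondrial reads, and counted exonic reads per gene (featureCounts 2.0.4). The authors deposited raw counts and normalized counts, the latter a rounded score divided by DESeq2 1.36.0 size factors, and the table named as normalized holds the raw counts (totals from 3922137 to 7562215). For HL-1, the authors deposited raw counts and FPKM from paired-end reads (HISAT2 and TopHat2 are among the tools in the submitters' processing notes, and the counter is not given in the sources used here). The tables of normalized scores were not used, and FPKM served for levels only.

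Counts were tested with edgeR 4.0.16 (TMM, quasi-likelihood F-test, R 4.3.3), all 18 hearts in 1 fit (average count over 5, 15443 genes) and all 12 cultures in another (filterByExpr, 14760 genes), with 1 mean per group and Benjamini-Hochberg adjustment over all genes. Calls required an adjusted p under 0.05 in hearts, and under 0.01 with a fold change over 1.5 in HL-1. Standard errors are the log2 fold change over the root of F. The fits were tested on simulated data. Alternatives were DESeq2 1.42.0, its size factors, no filter, the compared groups alone, the replicate number as a block, single libraries left out and, for HL-1, no minimum fold. Named with every value were Hspa5, the sensors, Xbp1 and up to 8 called genes of largest change per comparison (average count of at least 50). Members and lists were chosen with earlier results of these data known.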

Additional observations from a re-analysis of the deposited data

Results flagged for a closer look

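The change with time of day differed between groups of mice for several ER genes, by a test of the difference itself (edgeR quasi-likelihood interaction, Benjamini-Hochberg adjusted p under 0.05, 3 hearts per group). Beside the 8 genes given above, the age by time interaction passed for Hsp90b1 (0.60), Pdia3 (0.58), Dnajb9 (0.54), Edem1 (0.48), Pdia6 (0.46), Atf6 (0.44), Sec61a1 (0.39), Dnajb11 (0.38) and Stt3a (0.25); the 8 were Sdf2l1 (2.27), Manf (1.40), Hyou1 (1.14), Creld2 (1.13), Pdia4 (0.97), Xbp1 (0.83), Syvn1 (0.82) and Dnajc3 (0.70). Between old NR and young hearts the interaction passed for Sdf2l1 (2.87), Manf (1.62), Creld2 (1.41), Hyou1 (1.40), Xbp1 (0.93), Pdia4 (0.93), Syvn1 (0.88), Dnajc3 (0.65), Hspa5 (0.61), Sec23b (0.57), Hsp90b1 (0.57), Pdia3 (0.56), Pdia6 (0.54), Dnajb9 (0.45), Dnajb11 (0.40), Stt3a (0.37) and Sec61a1 (0.33). Of these calls, 10 of 17 for age by time and 12 of 17 for old NR against young held in every alternative fit. No gene of the 44 passed between old NR and old H2O hearts in edgeR.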

How the results depend on the processing

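In young hearts 21 ER genes passed for time, 17 with DESeq2 and 16 to 19 without single hearts. Without single hearts the counts were 2 to 2 in old H2O hearts, 2 to 5 in old NR hearts (3 with DESeq2), 12 to 20 for age by time, 0 to 0 for NR by time (1 with DESeq2), 12 to 17 for old NR against young by time, 1 to 3 for age at ZT10 (2 with DESeq2 and 11 with only the 2 groups fitted), 12 to 20 for age at ZT22, and 0 to 0 for NR at either time. In HL-1 they were 1 to 1 for FK866 and for NR added to it and 0 to 0 for the other comparisons; with no minimum fold change they were 11 for FK866, 10 for NR against FK866 and 1 for FK866 plus NR against untreated. Fitting only the 2 groups took the age call at ZT22 from Derl2, Hsp90b1, Stt3a, Edem1, Sec61a1 and Rpn1. Replicate numbers were not taken as pairs in the main fits. Correlations of deviations between equal replicate numbers ran from -0.27 to 0.16, and unequal numbers were not compared, so pairing is not settled by them. With the replicate block the counts were 21, 2, 6, 19, 0 and 17 for the 6 time comparisons and 5 and 22 for age, with no other count moved. Over all genes the block raised the heart counts, as from 2219 to 2419 for time in young hearts. Signs turned only for values that had not passed, without single hearts: for time in old H2O hearts Hspa5 ran from -0.032 to 0.229 and Eif2ak3 from -0.131 to 0.053, for age by time Eif2ak3 from -0.031 to 0.153, for NR by time Hspa5 from -0.083 to 0.181 and Ern1 from -0.219 to 0.008, and for old NR against young by time Atf6 from -0.036 to 0.111 and Eif2ak3 from -0.147 to 0.031. The cause was not tested. ERSE matches on the gene's own strand alone were in 6 genes. At these depths low genes such as Derl3, with an average count of 4.5 in hearts, could not be tested.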
